A study of Mus musculus with 2 samples.

Results

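Across the 20807 autosomal protein-coding genes of the mouse, 61 genes had at least 3 separate open promoters in DNase-seq of hippocampal tissue, which is 0.293% of all these genes and 1.47% of the 4149 genes that have enough annotated starts to qualify. The genes were chosen by measured values. A transcription start was counted as open when a peak of each of the 2 libraries lay within 500 bp of it, and a gene was selected on having 3 or more open starts that lie at least 5 kb from each other. The number of open promoters is therefore a property of the selection and is given as a description, without a test. Of the 61 genes, 51 had 3 separate open promoters, 8 had 4, Pde4d had 5 and Fry had 6, which gives 196 promoters in all. A further 663 genes had 2, 10766 genes had 1 and 9317 genes had 0. The count of 61 became 131 when peaks of replicate 1 alone decided, 75 with replicate 2 alone, and 19 when only starts of the transcripts that GENCODE tags as basic, a subset that favours full-length ones, were used.

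DNase-seq maps the chromatin that the enzyme DNase I can cut, and a peak marks a stretch where cuts are dense. Both libraries came from tissue labelled as a layer of hippocampus, without the layer being named, of female B6CASTF1/J mice at 25 days of age, a cross of C57BL/6J with the wild-derived CAST strain. The libraries are given as biological replicates 1 and 2 of a single untreated group, with the same donor entry, and nothing states whether they came from different animals. The spread between them may therefore be technical in part, and there is no other group to compare with.

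Many mammalian genes can be transcribed from more than one promoter. A downstream promoter gives a transcript with another first exon, which can change the untranslated leader, the protein's start, or the cells and stages in which the gene is used. In brain this is well known for the cyclic AMP phosphodiesterase Pde4d and for large cytoskeletal linkers such as dystonin. CpG-rich promoters are typical of broadly used genes, while CpG-poor ones are more often tied to particular cell types.

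The separate promoters of a single gene could differ widely in sequence, and the 2 described genes with the widest range of CpG content are shown. Unc13b, which encodes a protein that primes synaptic vesicles for release, lies on chromosome 4 (chr4:43058953-43264871, plus strand), and Itpk1, which encodes an inositol phosphate kinase, lies on chromosome 12 (chr12:102568582-102704930, minus strand). The 200 bp before 2 open starts of Unc13b and 3 of Itpk1 are written 5′ to 3′ on the strand of the gene from RefSeq's GRCm38.p6 sequence, whose coordinates are those of mm10. Capitals mark CpG dinucleotides. The windows hold 13 CpGs at the first and 4 at the third promoter of Unc13b. Those of Itpk1 hold 38 CpGs at the first, 2 at the third and 4 at the fourth.
Unc13b promoter 1 (chr4:43058753-43058952, plus strand): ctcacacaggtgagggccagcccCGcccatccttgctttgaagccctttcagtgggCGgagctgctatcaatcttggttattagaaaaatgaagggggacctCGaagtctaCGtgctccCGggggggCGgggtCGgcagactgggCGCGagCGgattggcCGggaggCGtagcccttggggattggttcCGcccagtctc
Unc13b promoter 3 (chr4:43209298-43209497, plus strand): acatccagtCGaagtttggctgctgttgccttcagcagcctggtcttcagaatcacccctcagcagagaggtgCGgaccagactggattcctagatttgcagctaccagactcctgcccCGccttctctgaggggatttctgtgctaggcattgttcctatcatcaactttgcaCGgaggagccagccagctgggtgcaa
Itpk1 promoter 1 (chr12:102704931-102705130, minus strand): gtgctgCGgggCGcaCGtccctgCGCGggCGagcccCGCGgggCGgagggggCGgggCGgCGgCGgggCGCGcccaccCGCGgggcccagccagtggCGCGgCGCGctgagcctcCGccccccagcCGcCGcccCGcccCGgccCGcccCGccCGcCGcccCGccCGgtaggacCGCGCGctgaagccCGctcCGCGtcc
Itpk1 promoter 3 (chr12:102640935-102641134, minus strand): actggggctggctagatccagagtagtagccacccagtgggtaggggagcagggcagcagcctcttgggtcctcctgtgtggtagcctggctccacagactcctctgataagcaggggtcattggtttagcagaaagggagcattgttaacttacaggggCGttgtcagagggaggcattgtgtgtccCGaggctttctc
Itpk1 promoter 4 (chr12:102594078-102594277, minus strand): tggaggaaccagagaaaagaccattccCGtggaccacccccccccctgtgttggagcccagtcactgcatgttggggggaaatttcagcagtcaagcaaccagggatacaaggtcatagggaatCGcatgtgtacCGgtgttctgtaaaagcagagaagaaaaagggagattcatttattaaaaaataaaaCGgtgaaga

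In both genes the first of the sequences shown carries the most CpGs and the promoters further downstream lie within introns or an exon of the gene. Unc13b had peak signals of 4.54 in replicate 1 and 1.62 in replicate 2 at the first promoter. The second, 56.2 kb downstream, had 2.31 in replicate 1 and 0.638 in replicate 2, and the third, 151 kb downstream, had 1.04 and 0.885 in replicates 1 and 2. The CpG-richest promoter of Unc13b was thus also its strongest in both libraries. Itpk1 had 8.51 in replicate 1 and 1.51 in replicate 2 at the first promoter, 1.80 and 1.22 at the second, 1.82 and 1.10 at the third, and 1.01 and 0.510 at the fourth. The first promoter of Itpk1 was the highest and the fourth the lowest in both libraries, whereas the second and the third lay close together. These signals are the values deposited for each peak, whose scaling is not stated. They are set side by side as deposited, and replicate 1 was higher at 194 of the 196 promoters, with a median log2 ratio of replicate 1 over replicate 2 of 1.00.

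The libraries held 61466 peaks in replicate 1 and 50379 in replicate 2, with median peak signals of 1.44 and 0.803. Sequencing depth is not known from the files used, so a start without a peak was not detected as open in these lists and is not shown to be closed. The 196 promoters had median signals of 1.98 in replicate 1 and 1.05 in replicate 2, and their order in the libraries was related with a Spearman rho of 0.793 over the 196 promoters, which share these libraries and are not replicates. Of the markers used to check the tissue label, promoters were open for 4 of 5 pan-neuronal genes (Snap25, Syt1, Syn1 and Tubb3) and 3 of 5 of forebrain excitatory neurons (Neurod2, Neurod6 and Emx1). Gfap was open among 3 astrocyte markers. None of the markers of oligodendrocytes, microglia, endothelium, liver, muscle or hindbrain was open in both libraries, and Prox1, which marks dentate granule cells, had a peak in replicate 2 only. In bulk tissue, fewer cells with an open promoter and a weaker signal per cell cannot be told apart.

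The 61 genes were long and had many annotated starts. Their median length was 226 kb, from 17.3 kb (Ttyh1) to 1973 kb (Dlg2), against 64.7 kb for the 4088 other genes with 3 or more separate annotated starts. They had a median of 5 annotated starts at least 5 kb apart, against 3 in those other genes, of which 70.1% had 1 open promoter, 18.2% had 0 and 11.6% had 2. Among genes with 8 or more separate annotated starts, 11.6% belonged to the 61 (17 of 146), against 0.368% of genes with exactly 3 (8 of 2174). A gene with exactly 3 qualifies only when all of them are open, so the selection itself favours genes with more starts. By length, 42 of the 1037 genes of 128.9 to 2961 kb belonged to the 61 (4.05%). The share was 0.868% in the next shorter class of 1037 genes, 0.386% in the class below it and 0.578% in the 1038 shortest genes, so it was not ordered by length throughout. Genes with more separate annotated starts were also longer, with a median of 220 kb at 8 or more starts against 45.5 kb at 3, and length and number of starts were not separated here.

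**Figure D1:**
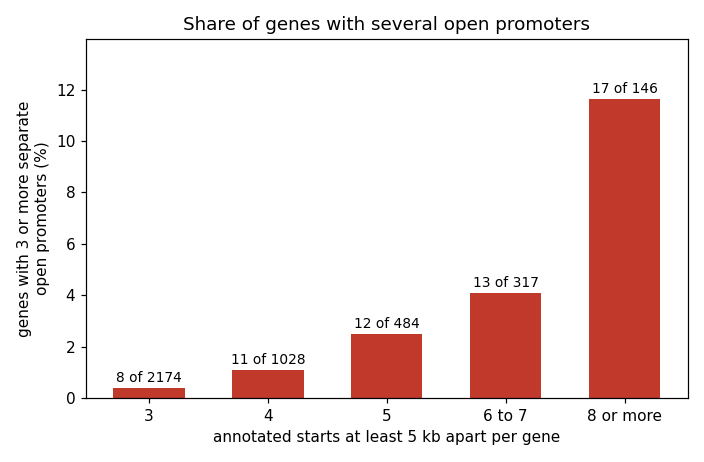
Share of genes with 3 or more separate open promoters, in percent of all genes with the given number of annotated starts at least 5 kb apart; the numbers over the bars are the genes selected and the genes in each class. The share goes from 8 of 2174 genes with 3 such starts to 17 of 146 genes with 8 or more; the selection itself favours genes with more starts.

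Within the genes, not every annotated start was open. A median of 60% of a gene's separate annotated starts were open, and all of them were in 10 genes (Dctn1, Ttyh1, Zscan18, Ppfia3, Clasp2, Ccdc13, Itpk1, Ncald, Rapgef3 and Mxi1). The outermost open promoters of a gene lay a median of 138 kb apart, and neighbouring ones a median of 55.6 kb. In 51 of the 61 genes the first open promoter lay within 500 bp of the most 5′ annotated start. Of the 135 downstream promoters, 121 lay in an intron (89.6%) and 14 in an exon (10.4%). Of the 516 peak regions shared by both libraries in the bodies of the 61 genes, 253 lay at annotated starts (49.0%). The genes were selected on peaks of both libraries at their annotated starts, so the selection itself raises this share. It is given as a description only, without the same share for the other genes able to qualify. Over all 4149 genes able to qualify, the first separate start was open in 68.5% and a downstream one in 7.21% (881 of 12227). For scale, 1.36% of the bases in the bodies of those genes, beyond the first 5 kb, had peaks of both libraries within 500 bp.

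**Figure D2:**
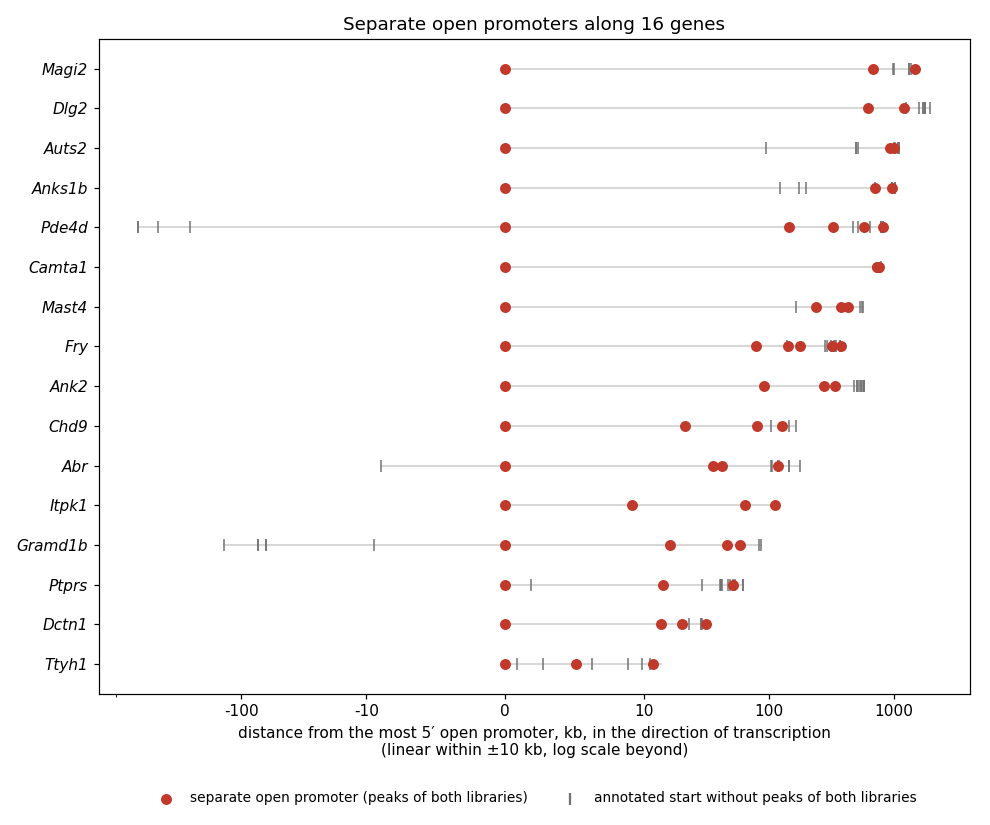
Positions of separate open promoters (red circles) and of annotated starts without peaks of both libraries (grey ticks) along 16 genes, as distance in kb from the most 5′ open promoter on an axis that is linear within 10 kb and logarithmic beyond. Magi2 has the greatest distance between outermost open promoters, 1475 kb, and Fry the most open promoters, 6.

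Fry, which encodes a large protein of cell polarity and the microtubule cytoskeleton (chr5:150118645-150497753), had the most open promoters. Its first had 5.20 in replicate 1 and 2.39 in replicate 2. The second to sixth, between 77.8 and 377 kb downstream, had 1.69, 1.65, 0.838, 0.875 and 1.35 in replicate 1 and 0.660, 1.15, 0.653, 0.645 and 0.503 in replicate 2. The first was the highest in both libraries, and each of the other 5 stayed below it in each library. The longest annotated protein of the third promoter has 3020 amino acids, against 159 for that of the first. Such annotated proteins can be incomplete at their end.

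Pde4d encodes a phosphodiesterase that degrades cyclic AMP and is known for long and short isoforms with their own promoters (chr13:108449948-109953461). Its 5 open promoters were all CpG-poor and spread over 807 kb. In 5′ to 3′ order they had 1.60, 1.34, 0.868, 0.985 and 1.07 in replicate 1, and 0.548, 0.533, 0.608, 0.503 and 1.35 in replicate 2. The first promoter was the highest in replicate 1 and the fifth in replicate 2, so the order within the gene differed between the libraries. The longest proteins annotated from the first, the third and the fourth promoters have 803, 703 and 678 amino acids, in that order. Each of the third and the fourth has a start codon not used at the open promoters before it. The fifth promoter gives only an annotated retained-intron transcript. Pde4d has 13 separate annotated starts in all.

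Among the genes with 4 open promoters, Camta1, which encodes a calmodulin-binding transcription activator, had 10.9 in replicate 1 and 3.95 in replicate 2 at its first. Its other 3 lay close together, 722 to 753 kb downstream, with 4.58, 2.60 and 4.95 in replicate 1 and 1.31, 1.47 and 1.31 in replicate 2. Dctn1, the largest subunit of the dynein activator dynactin, held its 4 within 31.1 kb. They had 6.13, 2.58, 2.96 and 2.62 in replicate 1 and 2.29, 0.938, 1.76 and 0.840 in replicate 2, and the first, the second and the third give annotated proteins of 1264, 1281 and 1142 amino acids. In both genes the first promoter was the highest in both libraries. Chd9, a chromatin remodeller, had the highest signal of all 196 promoters in replicate 1, 13.7, at its first promoter, where replicate 2 had 3.11. Its other 3 had 0.772, 4.17 and 1.54 in replicate 1 and 0.698, 1.44 and 1.16 in replicate 2. The first promoter of Mast4, a microtubule-associated kinase, had 4.44 and 1.52 in replicates 1 and 2, above its 3 downstream promoters, which had 1.52, 0.934 and 1.32 in replicate 1 and 0.930, 0.533 and 1.23 in replicate 2.

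In other genes with 4 open promoters a downstream one was the highest. Gramd1b, which encodes a sterol transfer protein of the endoplasmic reticulum, had 7.05 in replicate 1 and 2.07 in replicate 2 at its last promoter, 58.9 kb downstream in an exon. Its first 3 had 2.32, 2.00 and 1.99 in replicate 1 and 1.24, 0.915 and 1.37 in replicate 2. The last promoter of Gramd1b has no annotated coding transcript, and another gene starts within 500 bp of it. Abr had 9.85 in replicate 1 and 2.09 in replicate 2 at its second promoter, which is CpG-poor. Its first, the third and the fourth had 1.59, 1.39 and 3.34 in replicate 1 and 0.893, 0.638 and 1.18 in replicate 2. In Ank2, the ankyrin B gene, the second promoter was highest in both libraries, with 3.02 in replicate 1 and 1.76 in replicate 2. The first, the third and the fourth promoters of Ank2 had 1.24, 1.07 and 2.13 in replicate 1 and 0.578, 0.705 and 1.25 in replicate 2. The longest annotated proteins of Ank2 have 1219, 3900, 3926 and 454 amino acids from the first to the fourth promoter. Every downstream promoter has a start codon not used at the open promoters before it.

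Among the widest spans were those of 3 genes of the synapse and of Auts2. Magi2, a synaptic scaffold (chr5:19227036-20704792), had open promoters 680 and 1475 kb downstream of its first. Its signals in 5′ to 3′ order were 2.68, 0.963 and 4.13 in replicate 1 and 1.40, 0.548 and 1.55 in replicate 2, so the last was the highest in both libraries. No coding transcript is annotated at that last promoter. Dlg2, which encodes the postsynaptic scaffold PSD-93 (chr7:90476672-92449247), had 6.57 in replicate 1 and 2.86 in replicate 2 at its first promoter. That first promoter of Dlg2 carries no annotated coding transcript. The promoters of Dlg2 614 and 1196 kb downstream had 0.787 and 0.868 in replicate 1 and 0.593 and 0.525 in replicate 2, both far below the first. Auts2, a nuclear regulator of neural development, had 2.95, 1.57 and 2.09 in replicate 1 and 1.22, 0.690 and 0.833 in replicate 2, with its downstream promoters 927 and 1005 kb away. The first promoter of Auts2 likewise lacks an annotated coding transcript. Anks1b, which encodes a protein of the postsynaptic density, had 1.65, 1.57 and 0.941 in replicate 1 and 0.818, 1.11 and 0.743 in replicate 2 over 956 kb. Its longest annotated proteins have 1259, 510 and 291 amino acids.

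**Figure D3:**
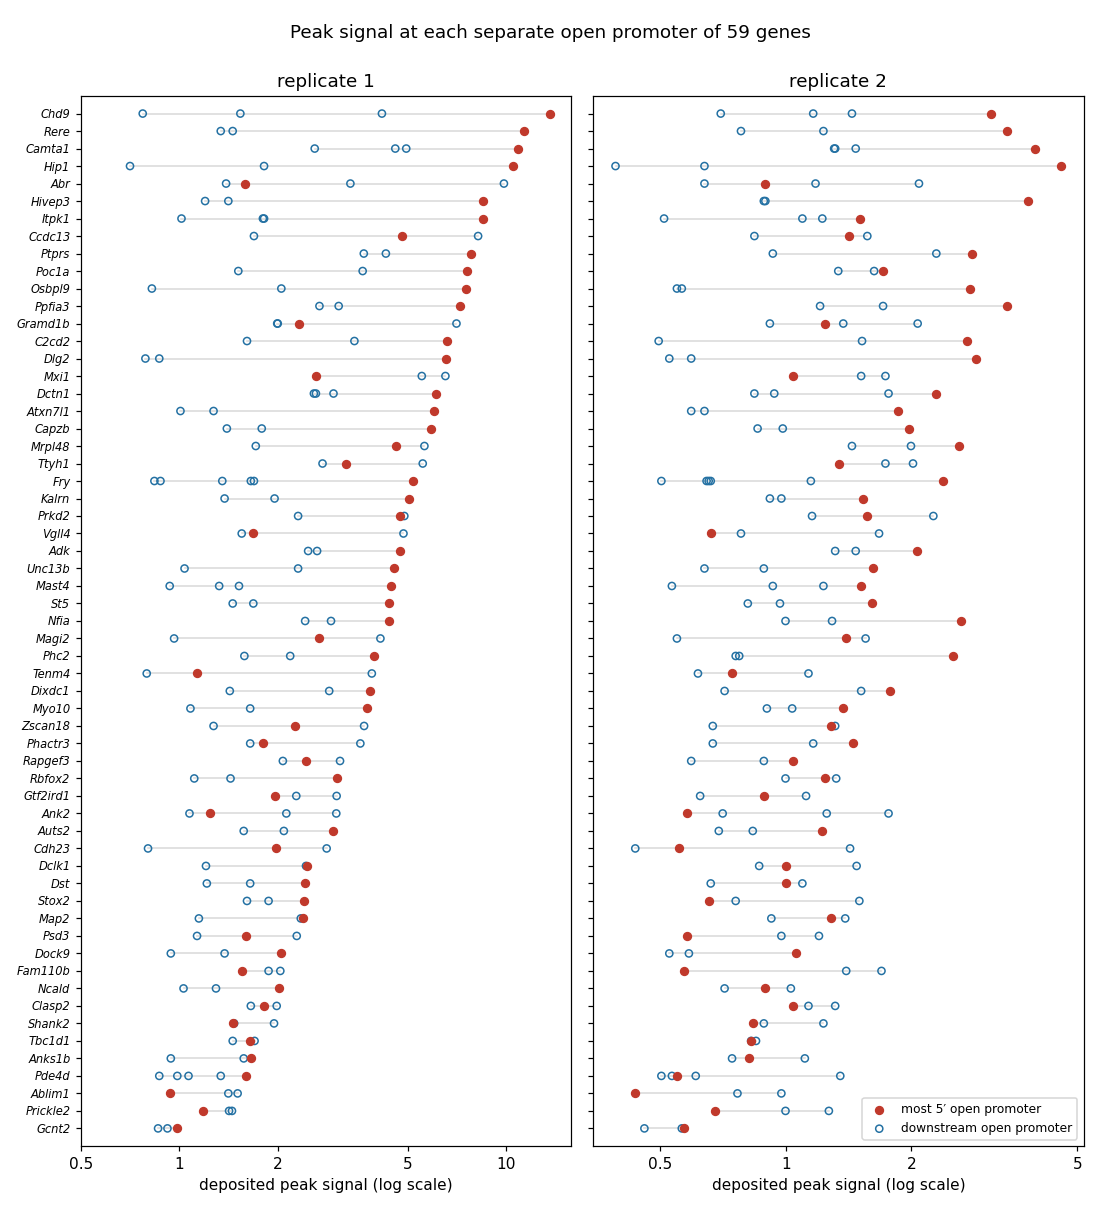
Deposited peak signal of each separate open promoter (log axis), with replicate 1 on the left and replicate 2 on the right and 1 row for each of 59 genes, ordered by the strongest promoter in replicate 1. Filled circles are the most 5′ open promoter and open circles the downstream ones; over all 61 genes the first was the strongest in both libraries in 29.

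The most 5′ promoter was not always the strongest. It had the highest signal of its gene in replicate 1 in 37 genes and in replicate 2 in 32, and in both libraries in 29 of 61 genes (47.5%, 95% Wilson interval 35.5 to 59.8%, which covers counting error over genes only). The same promoter was the strongest in both libraries in 43 of 61 genes (70.5%), and in 14 of those it was a downstream one: the last in 8 (among them Magi2, Vgll4, Tenm4, Shank2, Gramd1b, Cdh23 and Ablim1) and a middle one in 6 (Ank2, Tbc1d1, Zscan18, Clasp2, Ccdc13 and Abr). Of the genes named here, Magi2, Vgll4, Tenm4, Shank2, Gramd1b, Cdh23, Clasp2 and Ccdc13 have no coding transcript annotated at that downstream promoter. Ablim1, Ank2, Tbc1d1, Zscan18 and Abr have at least 1 there. In the remaining 18 of the 61 genes the libraries differed in which was the strongest. Over the first promoters the median signal was 3.04 in replicate 1 and 1.40 in replicate 2, over middle ones 1.65 and 0.953, and over last ones 1.88 and 0.975. In the 663 genes with 2 open promoters, the first was the strongest in both libraries in 54.0% and the downstream one in 28.8%. These shares are among 2 promoters per gene, against 3 or more in the 61 genes, so they are not directly comparable.

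Within a gene the strongest promoter exceeded the weakest by a median of 2.70 times in replicate 1 and 2.26 times in replicate 2. By the smaller of the ratios of both libraries, the genes with the widest ratio were Hip1, Dlg2, Osbpl9 and Fry. Hip1, which links clathrin-coated vesicles to actin, had 10.5, 1.82 and 0.706 in replicate 1 and 4.58, 0.638 and 0.390 in replicate 2. Osbpl9, of the oxysterol-binding protein family, had 7.55, 0.824 and 2.05 in replicate 1 and 2.76, 0.563 and 0.548 in replicate 2. Each had its highest value at the first promoter in both libraries. By the larger of them, those with the narrowest were Tbc1d1, Gcnt2 and Clasp2. Tbc1d1, a Rab GTPase-activating protein, had 1.64, 1.70 and 1.46 in replicate 1 and 0.825, 0.848 and 0.825 in replicate 2. Gcnt2, a branching enzyme of cell-surface sugar chains known for alternative first exons, had 0.985, 0.919 and 0.860 in replicate 1 and 0.570, 0.458 and 0.563 in replicate 2. These 3 promoters of Gcnt2 all sat at the low end of the signal range, all were CpG-poor, and each is annotated with a protein of 401 amino acids. The second and the third each have a start codon not used at the open promoters before them.

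By role, the share of a list's qualifying genes that belonged to the 61 was 17.1% for synaptic adhesion and scaffold genes (6 of 35), 14.3% for genes of microtubule-associated proteins (3 of 21) and 20.7% for genes known for alternative promoters (6 of 29), beside the 1.47% of all genes able to qualify. These lists were drawn up with earlier results of these data known, and their genes are long: the qualifying synaptic genes had a median length of 297 kb and 5 separate starts, and the genes known for alternative promoters 335 kb and 6. Among the genes known for alternative promoters with 3 or more open were Ank2, Dlg2, Dst, Kalrn and Pde4d, and another 10 had 2 open, among them Bdnf, Crem, Tcf4 and Rbfox1. In all, 20 of the 61 genes stood in at least 1 of the 17 lists.

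Of the synaptic genes, Ptprs, a receptor phosphatase of presynaptic adhesion, was the only one of the 61 genes with every promoter CpG-rich. It had 7.79, 3.67 and 4.29 in replicate 1 and 2.80, 2.30 and 0.930 in replicate 2. Ppfia3, which encodes the presynaptic scaffold liprin-alpha-3, had 7.24, 2.68 and 3.07 in replicate 1 and 3.39, 1.21 and 1.71 in replicate 2. In both genes the first promoter was the highest in both libraries. Shank2, a scaffold of the postsynaptic density, had 1.46, 1.47 and 1.95 in replicate 1 and 0.833, 0.885 and 1.23 in replicate 2, so the last, 242 kb downstream, was the highest in both. No coding transcript is annotated at that last promoter. Unc13b was the only one of 29 qualifying genes of synaptic vesicles and release among the 61 (3.45%). None of 16 qualifying potassium channel genes, 18 calcium and sodium channel genes, 18 receptor tyrosine kinase genes and 11 glutamate and GABA receptor genes had 3 or more separate open promoters. Lists of this size are too small to set a count of 0 apart from the 1.47% of all qualifying genes.

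Of the cytoskeletal genes, Dst, which encodes the linker dystonin (chr1:33908225-34308661), had 2.43, 1.65 and 1.21 in replicate 1 and 0.998, 1.10 and 0.660 in replicate 2. Its downstream promoters lay 97.7 and 104 kb from the first, and the longest annotated proteins of the 3 promoters have 7717, 1471 and 7406 amino acids. Map2, the dendritic microtubule protein, had 2.40, 2.35 and 1.15 in replicate 1 and 1.28, 1.39 and 0.923 in replicate 2. The first promoter and the second of Map2 were close in both libraries, and the third was lower in both. Clasp2, a microtubule plus-end protein, had 1.82, 1.99 and 1.65 in replicate 1 and 1.04, 1.31 and 1.13 in replicate 2. Dclk1, a microtubule-associated kinase related to doublecortin, had 2.46, 1.21 and 2.44 in replicate 1 and 0.998, 0.863 and 1.48 in replicate 2. In Dclk1 the middle promoter was the lowest in both libraries, and the last gives a shorter annotated protein, of 452 amino acids against 756 at the first. With Ank2 and Dst, 2 of 21 qualifying spectrin, ankyrin, plakin and band 4.1 genes (9.52%) were among the 61, and 7 more had 2 open promoters.

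Kalrn, a guanine nucleotide exchange factor of dendritic spines with several isoforms, had 5.06, 1.38 and 1.96 in replicate 1 and 1.53, 0.975 and 0.915 in replicate 2. Its first promoter, CpG-rich and the highest in both libraries, is annotated without a coding transcript, and the downstream ones carry annotated proteins of 1663 and 1022 amino acids. Dock9, which activates Cdc42, had 2.04, 0.941 and 1.38 in replicate 1 and 1.06, 0.585 and 0.525 in replicate 2, with annotated proteins of 2058, 2042 and 2113 amino acids. Of 23 qualifying genes of neuronal RNA-binding and splicing proteins, Rbfox2, a splicing regulator, was among the 61 (4.35%), and 10 had 2 open promoters. Rbfox2 had 3.04, 1.43 and 1.11 in replicate 1 and 1.24, 1.32 and 0.998 in replicate 2, so that the first stood clear of the others in replicate 1 alone. Of 48 qualifying neural transcription factor genes, 3 were among the 61 (6.25%): Auts2, Camta1 and Nfia. Nfia, a factor of glial and neuronal development, had 4.38, 2.43 and 2.91 in replicate 1 and 2.63, 0.998 and 1.29 in replicate 2.

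Sequence composition was not part of the selection. Over 500 bp either side of the start, a promoter was called CpG-rich at an observed to expected CpG ratio of at least 0.6 and a G+C content of at least 50%. By this measure 72.1% of first promoters (44 of 61), 17.6% of middle ones (13 of 74) and 11 of 61 last ones were CpG-rich, which makes 34.7% of all 196 (95% Wilson interval 28.4 to 41.6%, counting error only). Median CpG ratios were 0.709 at first, 0.372 at middle and 0.358 at last promoters, against 0.259 at the 174 separate annotated starts of the same genes without peaks of both libraries, of which 2.87% were CpG-rich. The first promoter had the highest ratio of its gene in 46 of the 61 genes and was the only CpG-rich one in 29. In 12 genes no promoter was CpG-rich, among them Ablim1, Dclk1, Dlg2, Gcnt2, Gramd1b, Nfia, Pde4d, Phactr3, Prkd2, Rapgef3 and Ttyh1. In the 663 genes with 2 open promoters, the first was CpG-rich in 72.4% and the downstream one in 29.3%, against 17.8% of the downstream promoters of the 61 genes. CpG-rich promoters of the 61 genes had median signals of 2.78 in replicate 1 and 1.26 in replicate 2, and the others 1.65 and 0.998. Among downstream promoters alone these medians were 2.39 and 0.911 for the 24 CpG-rich ones and 1.61 and 0.975 for the 111 others, an order that differed between the libraries.

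**Figure D4:**
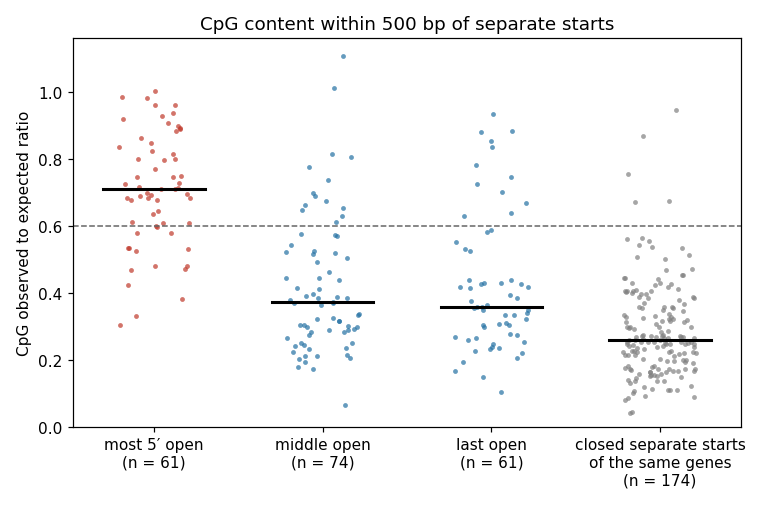
Observed to expected CpG ratio over 500 bp either side of each start, for the most 5′, middle and last open promoters of the 61 genes and for separate annotated starts of the same genes without peaks of both libraries; black bars are medians and the dashed line is the ratio of 0.6 used for CpG-rich. Medians are 0.709, 0.372, 0.358 and 0.259 from left to right.

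Short motifs were sought on both strands from 250 bp before to 50 bp after each start. GGGCGG, the box bound by SP and KLF factors, was found in 68.9% of first and 27.4% of downstream promoters of the 61 genes, beside 62.3% of 12288 separate open promoters of all autosomal protein-coding genes and 33.8% of 798 downstream ones. The full cyclic AMP response element TGACGTCA was in 7 of 61 first promoters (11.5%), those of Phactr3, Osbpl9, Rere, Zscan18, Clasp2, C2cd2 and Ptprs, against 3.79% of all separate open promoters. Among downstream promoters it was in 1 of 135 downstream promoters (0.741%), that of Ncald, against 1.88% of all downstream open ones. The ETS site CCGGAAG went the other way, with 3 of 61 first promoters (4.92%) against 17.6% of all separate open promoters, and likewise GCGCATGC, a core of the NRF1 site, with 1.64% against 5.70%. Among downstream promoters these shares were 5.93% against 6.27% of all downstream ones for CCGGAAG, and 0.741% against 3.13% for GCGCATGC. CAGATG, an E-box bound by NeuroD factors, was in 22.2% of downstream and 11.5% of first promoters of the 61 genes, beside 20.3% of all downstream and 11.8% of all separate open promoters. CAGCTG was in 25.2% of downstream and 16.4% of first promoters, beside 22.1% of all downstream and 14.7% of all separate open promoters. GTTGCCA, a core of the RFX site, was in 10.4% of downstream promoters (14 of 135), against 5.39% of all downstream open promoters. A match describes the letters in the window only, and the CpG content of the windows, which moved with GGGCGG, was not matched.

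Many of the downstream promoters are annotated with coding transcripts, and fewer with a start codon of their own. A coding transcript here is any with an annotated coding sequence. It may be classed as a target of nonsense-mediated decay, or share a start codon with the first promoter. At 93 of 135 downstream promoters (68.9%) at least 1 annotated transcript is coding, against 57 of 61 first promoters (93.4%). The shares were nearly the same in the 663 genes with 2 open promoters, 68.8% of downstream and 92.9% of first ones. A start codon not used at any separate open promoter of the gene further 5′ was annotated at 67 of 135 downstream promoters (49.6%, 95% Wilson interval 41.3 to 58.0%, counting error only). It is called the promoter's own here, and annotated starts outside the separate open promoters were not compared. Where the first promoter has no annotated start codon, as in Kalrn, Dlg2 and Auts2, the next promoter with a codon counts by construction. In the 663 genes with 2 open promoters the share with such a codon was 42.4% (281 of 663). With only protein-coding transcripts used for the starts, the share of 49.6% became 73.9%. Every downstream promoter had such a codon in 12 of the 61 genes (Ablim1, Ank2, Anks1b, Atxn7l1, Dock9, Dst, Gcnt2, Hip1, Kalrn, Psd3, Rbfox2 and Stox2), and no downstream promoter had one in 13. Where a protein length is given at both, the longest protein from the downstream promoter was shorter than that from the first in 47 of 77 cases. Some of these annotated proteins can be incomplete at their end. The 42 downstream promoters without a coding transcript, which carry processed or retained-intron transcripts, had median signals of 2.29 in replicate 1 and 1.14 in replicate 2, against 1.61 and 0.938 at the 93 with one. DNase-seq does not show whether a transcript starts at an open site.

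Some of these starts lay at a start of another gene of any type: 7 of 61 first promoters (11.5%) and 7 of 135 downstream ones (5.19%). Without such starts 50 genes met the selection instead of 61. A start of another protein-coding gene lay within 500 bp of 4 of 61 first promoters (Dst with Bend6, St5 with Akip1, Adk with Ap3m1, and C2cd2 with Zbtb21) and of 0 of 135 downstream promoters. In the 663 genes with 2 open promoters a protein-coding neighbour lay at 24.0% of first and 3.92% of downstream promoters. A start of another gene of any type lay at 32.6% and 8.14% of them. A footprint, a short protected stretch, was shared by both libraries within 500 bp of the start at 72.1% of first and 74.8% of downstream promoters of the 61 genes. It was not required to lie within a peak. In the 663 genes with 2 open promoters these shares were 81.9% and 75.1%. The start itself lay inside a peak of both libraries at 49.2% of first and 43.0% of downstream promoters of the 61 genes.

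The 28 genes not described one by one each had 3 open promoters, over spans of 17.3 to 587 kb. Among those with the first promoter highest in both libraries were Adk, Atxn7l1, C2cd2, Capzb, Dixdc1, Hivep3, Myo10, Phc2, Poc1a, Rere and St5. The first promoter was not the highest in both in Ablim1, Ccdc13, Cdh23, Fam110b, Gtf2ird1, Mrpl48, Mxi1, Ncald, Phactr3, Prickle2, Psd3, Rapgef3, Stox2, Tenm4, Vgll4 and Zscan18. Their first promoters had 0.934 to 11.3 in replicate 1 and 0.435 to 3.82 in replicate 2, and their downstream promoters 0.794 to 8.21 in replicate 1 and 0.435 to 2.00 in replicate 2. The lowest first promoter in both libraries was that of Ablim1, which encodes an actin-binding LIM protein. The second promoter of Psd3 and the fifth of Pde4d were the only 2 of the 196 with a higher signal in replicate 2.

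Some genes lay close to the limit of 5 kb between promoters. Just inside it, Ttyh1 keeps 3 open promoters up to a spacing of 5.08 kb, Ppfia3 up to 5.20 kb and Prkd2, a protein kinase D gene, up to 5.81 kb. Ttyh1, which encodes a membrane protein of neural cells, had 3.24, 2.74 and 5.56 in replicate 1 and 1.34, 2.02 and 1.73 in replicate 2. Prkd2 had 4.72, 4.88 and 2.31 in replicate 1 and 1.57, 1.16 and 2.26 in replicate 2. In both of these genes the libraries differed in which promoter was the highest. Just outside it, Blcap reaches 3 at a spacing of 4.94 kb, Stat3, the transcription factor of cytokine signalling, at 4.79 kb, and Dpf1, a subunit of neuronal chromatin remodelling complexes, at 4.07 kb. Blcap had 2.56, 4.37 and 2.04 in replicate 1 and 1.12, 2.29 and 0.645 in replicate 2. Stat3 had 20.1, 0.971 and 6.30 in replicate 1 and 4.73, 0.848 and 1.58 in replicate 2, and Dpf1 had 2.94, 6.87 and 1.06 in replicate 1 and 1.49, 2.35 and 1.06 in replicate 2.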

How the data were processed

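DNase-seq peaks and footprints of 2 libraries were used, on mm10 per the labels. The authors deposited 2 peak lists per library with a signal value per peak, whose scaling is not stated, and the list with fewer peaks was the main one. The footprints carry a deposited p-value, a false discovery rate, that is constant at 0.01, so they were not ranked. Cut-rate files were not used here. Aligner, peak caller and filters: not given in the sources used here. How CAST reads were aligned is likewise not stated, and depth is unknown.

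Genes and starts came from GENCODE M21, sequence from RefSeq GRCm38.p6. Open starts were walked from the 5′ end, and each at least 5 kb from the last one kept was kept. The signal of a promoter is the highest deposited peak signal within 500 bp. Peaks of the libraries at an open start did not have to overlap each other, and did so at 191 of the 196 promoters. A footprint counted as shared at an overlap of 50% of the shorter one. Transcripts whose coding sequence lacks its annotated beginning gave no protein length. Those with a coding sequence cut off at its end were not left out, so a stated length can be that of an incomplete protein. With 1 group of 2 libraries and genes chosen by their peaks, no test was run, and intervals over genes or promoters cover counting error only. Members, the 17 gene lists and the 13 motifs were chosen with earlier results of these data known.

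The genes described were 12 by number of open promoters (the 10 with 4 or more, then 2 of those with 3, taken by the higher mean signal of their weakest promoter), the 5 with the widest span, up to 3 per list, the 4 widest and 3 narrowest signal ratios, and 3 on either side of the spacing limit. Some of these genes, sequences and list results are not reported here. Other genes are named only where a count is itemised. Python 3.11.15, numpy 2.4.6, scipy 1.17.1, pysam 0.24.0 and matplotlib 3.10.9 were used. The count of separate promoters was tested on simulated data, where it was right for 100% of 400 genes. Alternatives changed the peak list, window, spacing, annotated starts, CpG threshold and library.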

Additional observations from a re-analysis of the deposited data

How the results depend on the processing

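The number of genes depended on what counts as a start or a peak. Against 61 genes, there were 19 with starts of transcripts tagged basic only, 32 with starts of protein-coding transcripts only, 21 with the stronger 50% of each peak list and 158 with the longer lists. A single library gave 75 genes without replicate 1 and 131 without replicate 2. Windows of 250 and 1000 bp gave 45 and 87, spacings of 2 and 10 kb gave 78 and 52, and leaving out starts near another gene gave 50. Camta1, Dctn1, Dixdc1 and Gramd1b had 3 or more open promoters under all 12 settings.

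The share of genes whose first promoter was the strongest, 47.5%, was between 41.4 and 52.4% under the alternatives run. Single libraries gave 49.6% of 131 genes without replicate 2 and 52.0% of 75 genes without replicate 1. These rest on 1 library and on other sets of genes, so they are not the same measure as the 47.5%. In the 61 genes the first promoter was the strongest in 60.7% by replicate 1 and in 52.5% by replicate 2. The CpG-rich share of 34.7% was 16.3% with a stricter threshold (ratio 0.75, G+C 55%) and 33.2 to 35.4% for single libraries. The share of downstream promoters with their own start codon, 49.6%, was 90.0% with basic transcripts, 73.9% with protein-coding transcripts, 35.6% with the stronger 50% of peaks, and 47.0 to 51.2% for single libraries. Fewer starts enter the first 2 of these by construction; for the stronger peaks the cause was not tested. No paired analysis was possible because the libraries form 1 group. Depth is unknown, which limits any statement on starts without peaks.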
